A study of Homo sapiens with 12 samples.

Results

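The 37 genes described here encode the enzymes of glycolysis (17 genes), glucose and lactate carriers (4), kinases that regulate glycolytic flux (6), the HIF-1 alpha subunit with a pair of prolyl hydroxylases (3) and genes linked to hypoxia-inducible factor, HIF (7). They were taken by symbol from a table of raw read counts of 60666 Ensembl gene IDs. All 37 were present, and all 37 were among the 23493 genes with enough reads to be tested. The RNA came from KMS-11, KMS-12 and RPMI8226, lines grown from human multiple myeloma and all labelled wild type (3 lines). Each line was grown with 1 µM JQ1, an inhibitor of the bromodomains of BET proteins, for 72 h, or with an equal volume of its solvent DMSO. The sample labels give a time for the JQ1 cultures only. There were 2 libraries for each of the 6 groups and 12 libraries in all. The series text asks how JQ1 changes genes that become active in myeloma. The labels do not say whether replicates were separate cultures, so the p-values measure the spread between libraries, which may be technical, and they give no oxygen or glucose level for the cultures.

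Glycolysis splits glucose into pyruvate, which is reduced to lactate or enters mitochondria through pyruvate dehydrogenase. Pyruvate dehydrogenase kinases (PDK1, PDK2, PDK3) close that entry, and the PFKFB enzymes make or break down fructose 2,6-bisphosphate, an activator of phosphofructokinase. HIF-1 alpha is hydroxylated by prolyl hydroxylases (EGLN1, EGLN3) when oxygen is present and is then degraded. When it is stable, HIF binds the core sequence ACGTG or GCGTG and raises transcription of many glycolytic genes, and MYC binds the overlapping E-box CACGTG at some of them. Malignant plasma cells are known for high glucose uptake and lactate output.

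The core sequences lie close to the start of several of the genes whose values follow. In RefSeq promoter windows (GRCh38.p14, 250 bases before to 50 after an annotated start), 31 of the 37 genes were matched, with 60 windows. No window was matched for SLC2A3, SLC16A1 and PFKFB2, or for the HIF-linked BNIP3L, VEGFA and NDRG1. Shares below count windows and not genes: HK1 and PFKM had 7 windows each, some of them overlapping. The core was searched on both strands as ACGTG and as GCGTG, and the E-box as CACGTG, which contains ACGTG on either strand. ACGTG or GCGTG was found in 39 of the 60 windows (65%), and in 48.5% of all 34961 windows of that length. ACGTG alone was in 40% of the windows of these genes and in 21.4% of all windows. The E-box was in 15% and 7.27%. A match describes these letters and not a bound site. Stretches are printed for 5 genes, all enzymes except the HIF-linked BNIP3, with the core, read on either strand, in capitals: HK2 (chr2:74834057-74834096, plus strand), PGK1 (chrX:78104028-78104077, plus strand), LDHA (chr11:18394368-18394502, plus strand), GAPDH (chr12:6535169-6535198, plus strand) and BNIP3 (chr10:131982014-131982078, minus strand). In LDHA, GAPDH and BNIP3 a run of 6 capitals CACGTG is an E-box.
HK2: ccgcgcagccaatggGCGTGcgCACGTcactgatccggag
PGK1: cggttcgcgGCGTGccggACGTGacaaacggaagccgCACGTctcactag
LDHA: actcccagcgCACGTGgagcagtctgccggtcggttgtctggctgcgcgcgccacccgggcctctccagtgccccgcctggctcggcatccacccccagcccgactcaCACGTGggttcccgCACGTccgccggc
GAPDH: gcgctctgcggggtCACGTGtcgcagagga
BNIP3: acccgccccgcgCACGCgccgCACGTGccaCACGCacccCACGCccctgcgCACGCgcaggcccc

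Depth ran from 15424512 to 27366499 reads per library, so that 3 reads, the upper limit that 0 reads allow, stand for 0.107 to 0.178 CPM, a gene's reads scaled to a common library size. Such limits cover counting error only. The 37 genes took 0.355% to 2.024% of the reads. Plasma cell markers summed to between 2514 and 8072 CPM, with 7 to 9 of 9 above 1 CPM in each group. The summed B cell markers stayed at or under 30.5 CPM, the T and NK cell markers at or under 6.95 CPM, the myeloid markers at or under 3.38 CPM and the stromal and endothelial markers at or under 7.66 CPM. The nuclear RNA MALAT1 took 3.61% to 25.8% of the reads, with the highest shares in KMS-12 with JQ1, and its part in the KMS-12 results was not tested. CPM here use library sizes scaled by edgeR's TMM method. Scaling to library size alone would shift the median JQ1 response of all genes by -0.353 (log2) in the average of the lines, -0.259 (KMS-11), -0.770 (KMS-12) and -0.0291 (RPMI8226). The DMSO libraries of KMS-11 stand apart from each other: 35 of the 37 genes were higher in replicate 2 than in replicate 1, with a median ratio of 1.38, and values without the higher library are given beside the results that rest on it.

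Under DMSO, KMS-12 had the lowest level of most of these genes. Of the 37 genes, 31 were higher in KMS-11 than in KMS-12 and 2 were lower, where 32.7% and 30.2% of all genes tested were higher and lower (quasi-likelihood test of edgeR with Benjamini-Hochberg adjustment, adjusted p under 0.05, used for every call below). Against RPMI8226, 30 genes were lower in KMS-12 and 5 were higher, with 33.2% and 29.3% of all genes. KMS-11 and RPMI8226 were less far apart, with 12 genes higher and 12 lower in KMS-11, where 28.2% and 30.0% of all genes were called. The median log2 difference of the 37 genes, KMS-11 minus RPMI8226, was 0.081. It was 0.34 without KMS-11 DMSO replicate 1 and -0.32 without replicate 2, so its direction rests on single libraries. The 3 comparisons share groups and are given each by itself. Under scaling to library size alone the counts were 29 and 4 for KMS-11 against KMS-12.

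Per kilobase of merged exons, GAPDH, which oxidises glyceraldehyde 3-phosphate, had the highest DMSO level of the 37 in every line, at 1190 ± 336 CPM per kilobase in KMS-11 (mean ± SD, n = 2 here and below), 308 ± 53.0 in KMS-12 and 497 ± 20.5 for RPMI8226. ENO1, the enolase of most tissues, followed at 348 ± 84.9, 124 ± 11.5 and 357 ± 14.3 CPM per kilobase. The HIF-linked DDIT4, an inhibitor of mTORC1 signalling, lay between them in RPMI8226 at 460.1 ± 44.4 CPM per kilobase and beside ENO1 in KMS-11 at 355 ± 60.1, but at 33.2 ± 1.17 in KMS-12. In KMS-11 the neighbours DDIT4 and ENO1 differed by less than their SDs. The lowest level belonged to EGLN3 in the KMS lines, at 0.121 ± 0.0301 CPM per kilobase in KMS-11 and 0 reads in KMS-12, and to HK1 in RPMI8226, at 0.133 ± 0.0543 CPM per kilobase against 0.315 ± 0.00838 for EGLN3.

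The widest DMSO contrasts were in single genes. The stress-responsive NDRG1 stood at 594 and 742 CPM in KMS-11 and 1233 and 1168 CPM in RPMI8226, against 12.2 and 10.3 CPM in KMS-12, a log2 difference of 5.89 ± 0.14 between KMS-11 and KMS-12 (± SE; Benjamini-Hochberg adjusted p = 4.56e-16). The glucose carrier SLC2A3 (GLUT3) had 54.2 and 127 CPM in KMS-11, 64.6 and 83.7 CPM in RPMI8226 and 1 read in both KMS-12 libraries together. GPI, which converts glucose 6-phosphate to fructose 6-phosphate, differed by 3.72 ± 0.17 between KMS-11 and KMS-12 and by -4.30 ± 0.17 between KMS-12 and RPMI8226. The reverse order was seen for HK1, the housekeeping hexokinase, and for the lactate carrier SLC16A1 (MCT1), both highest in KMS-12. HK1 was higher in KMS-12 than in RPMI8226 by 4.93 ± 0.26, its difference of KMS-11 minus KMS-12 was -1.26 ± 0.20, and SLC16A1 exceeded its RPMI8226 level by 1.40 ± 0.10. The other 3 genes higher in KMS-12 than in RPMI8226 were LDHB, PDK2 and PFKFB2, of which PDK2 was no longer called without the replicate 1 DMSO library of KMS-12 (0.41) or the replicate 2 one of RPMI8226 (0.34). PFKM, the muscle-type phosphofructokinase, was not called in any of the 3 comparisons.

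**Figure D1:**
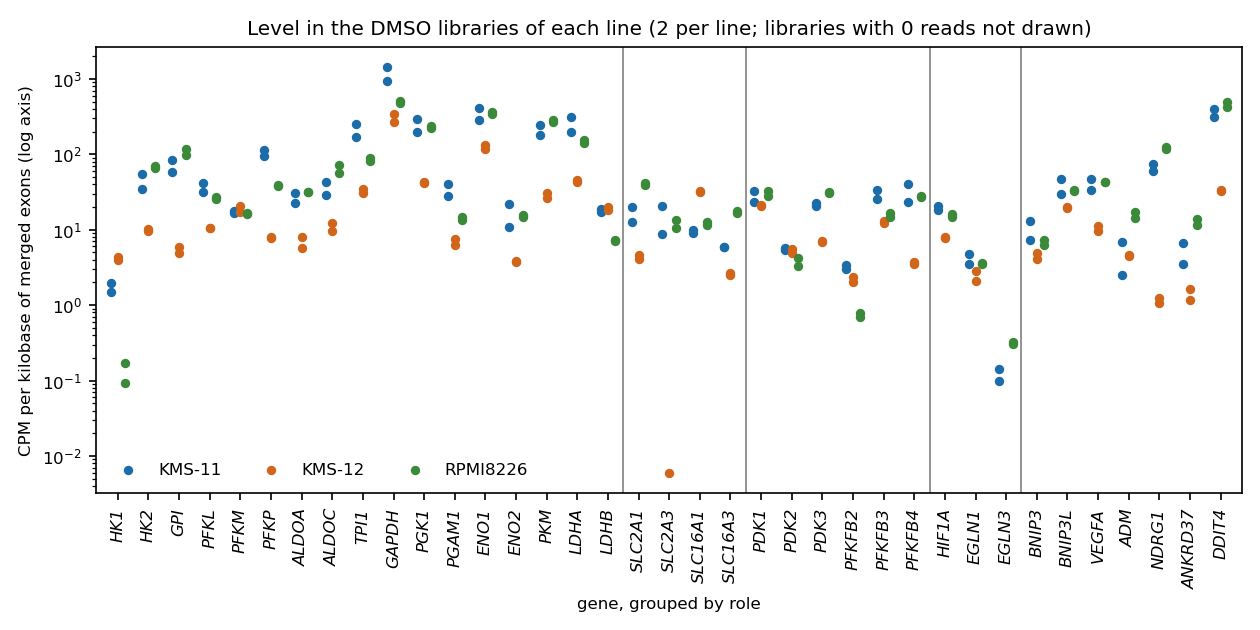
DMSO levels of the 37 genes in CPM per kilobase of merged exons on a log axis, with 1 point for each of the 2 libraries of a line and vertical lines between roles. KMS-12 lies below the other lines for most genes and above them for HK1 and SLC16A1, and GAPDH is the highest gene in each line.

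JQ1 was followed by lower levels of most of these genes in KMS-11 and by a mixed response in the other lines. In KMS-11, 30 of the 37 genes fell and 4 rose, where 21.2% and 17.3% of all genes tested fell and rose. In KMS-12, 12 fell and 7 rose (all genes 25.7% and 20.2%), and in RPMI8226, 12 fell and 5 rose (18.6% and 13.6%). In the average of the lines 25 fell and 5 rose, against 26.7% and 22.3% of all genes. With library size alone as the scale, the counts became 29 lower and 3 higher in KMS-12, 28 and 2 in the average, 32 and 3 for KMS-11 and 13 and 6 for RPMI8226, so the mixed response of KMS-12 depends on the scaling. Under that scale the share of calls that are rises among all genes went from 44.0% to 7.49% in KMS-12 and from 45.6% to 17% in the average. Without KMS-11 DMSO replicate 2, 28 genes fell and 3 rose in KMS-11. In RPMI8226 the counts rest on single libraries. There 6 fell and 3 rose without DMSO replicate 1, 6 and 4 without JQ1 replicate 1, 7 and 3 without DMSO replicate 2, and 9 and 2 without JQ1 replicate 2.

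The genes that fell in all 3 lines were HK2, GPI, SLC2A1, PDK1, PDK2, PFKFB4 and VEGFA, 7 in all, and 6.37% of all genes tested did so. SLC16A1 was the 1 gene of the 37 that rose in all 3 (6.04% of all genes did), although its KMS-12 change is -0.18 with library size alone. Of the 37, 6 were called in opposite directions in different lines (ALDOA, ALDOC, TPI1, GAPDH, PKM and EGLN3), against 5.06% of all genes. The genes called lower in KMS-11 and in no other line numbered 15, where 5.42% of all genes tested were, among them ALDOA, ALDOC, TPI1, GAPDH and PKM. ANKRD37 was called in no single line. The RPMI8226 calls behind this grouping for GPI, SLC2A1, PDK1, PFKFB4 and VEGFA, and the KMS-12 call of PDK1, were each lost with some library left out, as given with each gene.

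**Figure D2:**
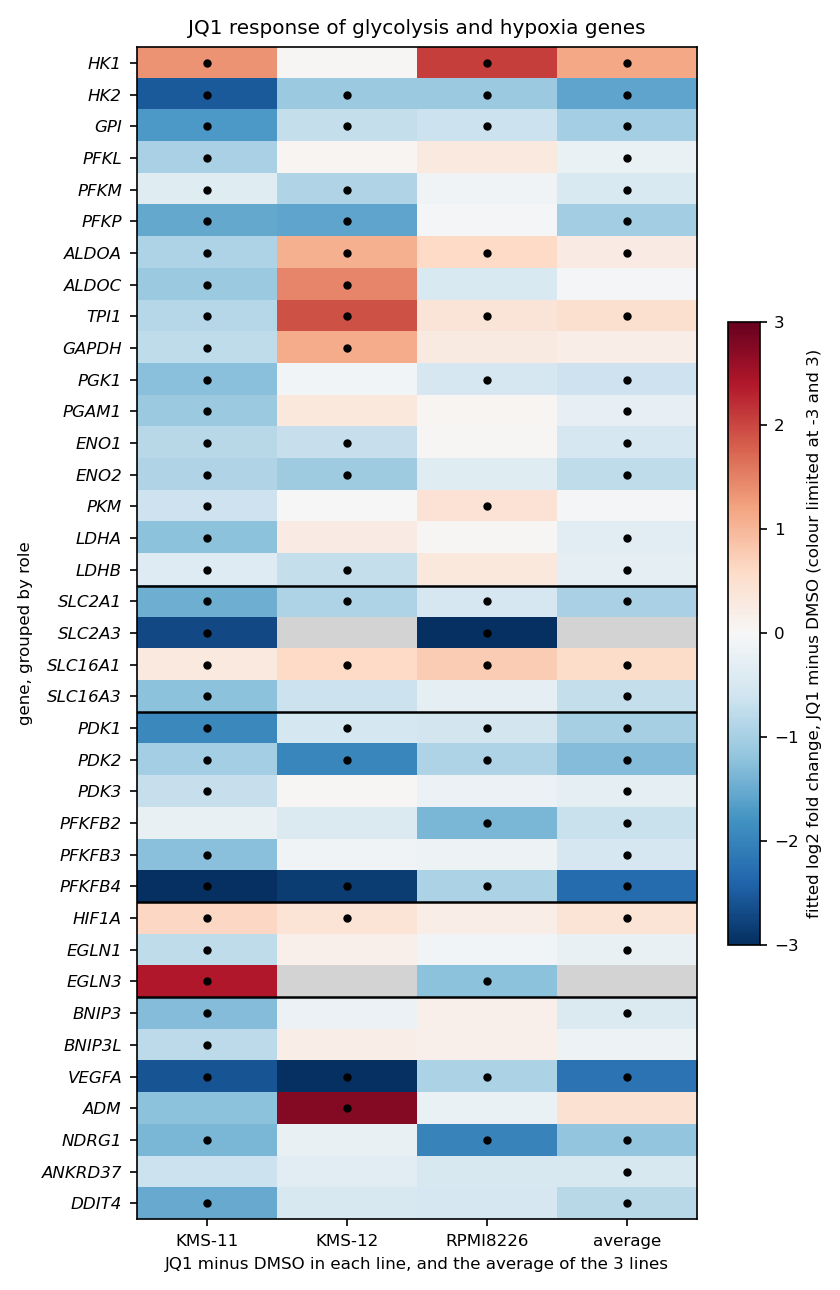
Fitted log2 fold change, JQ1 minus DMSO, of each gene (rows, with black lines between roles) in each line and in the average of the lines, where a black dot marks a call and grey marks SLC2A3 and EGLN3 in KMS-12 and the average, which rest on 0 or 1 read. KMS-11 is blue for 30 called genes, and TPI1, GAPDH, ALDOA and ALDOC are red in KMS-12.

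The glycolytic enzymes fell together in KMS-11. There 16 of the 17 fell and HK1 rose, with a median log2 change of -0.93 where the median over all genes tested was 0. In KMS-12, 7 fell and 4 rose (median 0.02, all genes -0.06), and in RPMI8226, 3 fell and 4 rose (median 0.04, all genes -0.03). Of all genes tested, 21.2% (KMS-11), 25.7% (KMS-12) and 18.6% (RPMI8226) fell, and 17.3%, 20.2% and 13.6% rose. The enzyme falls in RPMI8226 and the enzyme rises in KMS-12 are thus near the shares of all genes. With library size alone, 13 enzymes fell and 2 rose in KMS-12, with a median of -0.75. Without KMS-11 DMSO replicate 2, 14 enzymes fell in KMS-11 and the median was -0.70. Summed over the 17 enzymes, the level was 10707 and 15552 CPM in the DMSO libraries of KMS-11 against 6754 and 6907 CPM with JQ1. In KMS-12 it was 3197 and 2760 CPM against 3916 and 4097 CPM, and in RPMI8226 it was 10919 and 10521 CPM against 10629 and 11409 CPM. The sums do not overlap between treatments in KMS-11 or KMS-12, in opposite directions, and overlap in RPMI8226. In KMS-12 the higher sum rests largely on GAPDH, which went from 917 ± 158 CPM with DMSO to 1990 ± 82.5 CPM with JQ1 (mean ± SD). It does not describe the 17 enzymes as a set. The KMS-12 direction depends on the scaling: as a plain share of reads the enzymes took 0.393% and 0.339% with DMSO against 0.283% and 0.294% with JQ1 there.

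**Figure D3:**
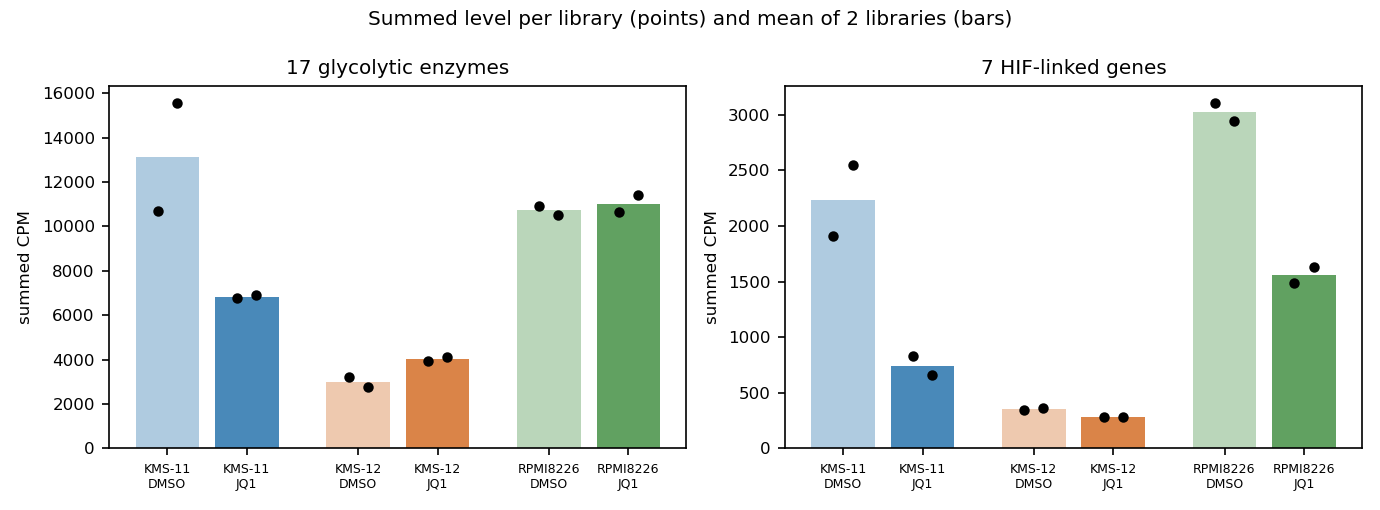
Summed CPM of the 17 glycolytic enzymes (left) and of the 7 HIF-linked genes (right) in each group, with points for the 2 libraries and bars for their mean. The enzyme sum falls from 10707 and 15552 to 6754 and 6907 CPM in KMS-11 and rises in KMS-12 on this TMM scale (as a plain share of reads it falls there too), while the HIF-linked sum is lower with JQ1 in every line. In KMS-12 the change of the enzyme sum rests largely on GAPDH, and that of the HIF-linked sum on VEGFA. In RPMI8226 the change of the HIF-linked sum rests largely on NDRG1.

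The hexokinases, which phosphorylate glucose on entry, moved in opposite directions. HK2 (ENSG00000159399, chr2:74833981-74893359, plus strand; GRCh38 positions from GENCODE 29 here and below), the inducible hexokinase, stood at 212 and 329.5 CPM in the DMSO libraries of KMS-11 against 47.0 and 47.4 with JQ1, at 61.4 and 59.1 against 25.8 and 30.1 in KMS-12, and at 394 and 429.8 against 172 and 210.3 in RPMI8226. Both JQ1 libraries lay below both DMSO libraries in each line. The log2 changes were -2.52 ± 0.18 (KMS-11), -1.11 ± 0.18 (KMS-12) and -1.11 ± 0.17 (RPMI8226), with adjusted p between 6.24e-07 and 0.000445 (edgeR, Benjamini-Hochberg). HK1 stood at 9.29 and 12.6 CPM in the DMSO libraries of KMS-11 against 24.8 and 30.4 with JQ1, at 27.1 and 25.2 against 25.9 and 28.1 in KMS-12, and at 0.593 and 1.08 against 4.22 and 2.85 in RPMI8226. JQ1 raised it above both DMSO libraries in KMS-11 (1.34 ± 0.20, edgeR adjusted p = 3.21e-05) and RPMI8226 (2.06 ± 0.30, edgeR adjusted p = 4.56e-05), while in KMS-12 the libraries interleaved (0.045 ± 0.19, and -0.73 with library size alone). In RPMI8226 even the raised level of HK1 was far under that of HK2. The fall of HK2 was larger in KMS-11 than in KMS-12, by 1.41 (log2; SE 0.25; edgeR adjusted p = 0.00186), and than in RPMI8226, also by 1.41 (SE 0.24; edgeR adjusted p = 0.00297). With library size alone its changes were -2.77 (KMS-11), -1.88 (KMS-12) and -1.135 (RPMI8226), so the size of these gaps depends on the scaling.

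GPI (chr19:34359480-34402413, plus strand) fell in each line, with log2 changes of -1.73 ± 0.15 (KMS-11), -0.71 ± 0.16 (KMS-12) and -0.64 ± 0.15 (RPMI8226). The RPMI8226 call was lost without its DMSO replicate 1 (-0.51, edgeR adjusted p = 0.0509).

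The phosphofructokinases carry out the committed step of glycolysis and divide by subunit. PFKP, the platelet type, stood at 464 and 558 CPM in the DMSO libraries of KMS-11 against 179 and 173 with JQ1, at 38.7 and 37.4 against 13.7 and 11.8 in KMS-12, and at 186 and 191 against 184 and 181 in RPMI8226. It fell in both KMS lines (-1.54 ± 0.10 and -1.58 ± 0.11) and was near its DMSO level in RPMI8226 (-0.047 ± 0.10). PFKL, the liver type, stood at 284 and 370.3 CPM in the DMSO libraries of KMS-11 against 167 and 168 with JQ1, at 95.2 and 92.9 against 99.4 and 97.9 in KMS-12, and at 245 and 228 against 303 and 275 in RPMI8226. It fell in KMS-11 (-0.97 ± 0.11), with changes of 0.069 ± 0.11 in KMS-12 and 0.29 ± 0.11 in RPMI8226 that did not pass the test, and the KMS-12 value is -0.70 with library size alone. PFKM stood at 121 and 129.8 CPM in the DMSO libraries of KMS-11 against 89.6 and 106 with JQ1, at 149.5 and 127 against 71.9 and 75.3 in KMS-12, and at 121 and 119.6 against 114 and 109.8 in RPMI8226. It fell in KMS-12 (-0.91 ± 0.10) and, more narrowly, in KMS-11 (-0.36 ± 0.10), where the call was lost without JQ1 replicate 1 (-0.25). PFKP and PFKL were among the genes whose responses differed most between lines, with adjusted p of 3.74e-07 and 1.68e-05 (edgeR F test).

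The enzymes of the middle of the pathway fell in KMS-11 and rose in KMS-12. Triose phosphate isomerase TPI1 (ENSG00000111669, chr12:6867119-6870948, plus strand) stood at 461 and 677 CPM in the DMSO libraries of KMS-11 against 301 and 324 with JQ1, at 93.5 and 82.8 against 325 and 340.5 in KMS-12, and at 239.9 and 219 against 306 and 290 in RPMI8226. JQ1 libraries were below DMSO in KMS-11 and above it in KMS-12 and RPMI8226, and the response differed between lines with the smallest p of the 37 genes (edgeR F test, adjusted p = 2e-07). Its log2 changes were -0.86 ± 0.14 (KMS-11), 1.92 ± 0.14 (KMS-12) and 0.38 ± 0.14 (RPMI8226). The RPMI8226 call, at an adjusted p of 0.0472 (edgeR), was lost with any 1 of 10 libraries left out (values 0.31 to 0.44), and without KMS-11 DMSO replicate 2 the KMS-11 change was -0.54. The aldolases split fructose bisphosphate. ALDOA stood at 89.7 and 119 CPM in the DMSO libraries of KMS-11 against 57.0 and 52.1 with JQ1, at 31.0 and 22.4 against 53.9 and 57.3 in KMS-12, and at 123 and 125 against 174 and 202 in RPMI8226, with log2 changes of -0.93 ± 0.15 (KMS-11), 1.05 ± 0.15 (KMS-12) and 0.60 ± 0.15 (RPMI8226). ALDOC stood at 84.6 and 125 CPM in the DMSO libraries of KMS-11 against 49.7 and 47.2 with JQ1, at 36.3 and 28.3 against 87.4 and 89.7 in KMS-12, and at 211 and 163 against 136 and 137 in RPMI8226, with log2 changes of -1.11 ± 0.18 (KMS-11), 1.46 ± 0.18 (KMS-12) and -0.45 ± 0.18 (RPMI8226), of which the RPMI8226 change did not pass the test. In KMS-12, both aldolases lay above both DMSO libraries of the line with JQ1, and with library size alone the ALDOA rise there was 0.28 and not called. The average rise of ALDOA, 0.24 ± 0.085, was lost with any 1 of 7 libraries left out (adjusted p 0.057 to 0.0897, edgeR) and was -0.11 with library size alone, and its RPMI8226 call was lost without JQ1 replicate 2 (0.49).

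GAPDH followed the same directions, at 2837 and 4256 CPM in the DMSO libraries of KMS-11 against 2022 and 2174 with JQ1, at 1028 and 805 against 1931 and 2048 in KMS-12, and at 1525 and 1438 against 1643 and 1921 in RPMI8226. Its log2 changes were -0.76 ± 0.16 (KMS-11), 1.12 ± 0.17 (KMS-12) and 0.27 ± 0.16 (RPMI8226), called in the KMS lines. The KMS-11 change was -0.42 without DMSO replicate 2, and with library size alone the KMS-12 rise was 0.35 and not called. Reads of near-identical copies may bear on this gene, since GENCODE 29 names 62 GAPDH pseudogenes, and how the submitters counted such reads is not given in the sources used here. The same limit holds for other genes, with 39 named pseudogenes for BNIP3, 13 for PGAM1 and 6 for LDHA.

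The enzymes of the later steps fell in KMS-11 with a mixture of called and uncalled changes elsewhere. PGK1, the first step that yields ATP, fell in KMS-11 (-1.25 ± 0.16) and RPMI8226 (-0.51 ± 0.15), with a KMS-12 change of -0.072 ± 0.15. The RPMI8226 call was lost without either DMSO library or JQ1 replicate 1 (values -0.56 to -0.36). PGAM1, the next enzyme, fell in KMS-11 (-1.12 ± 0.15), and its average change of -0.25 ± 0.09, or -0.15 without KMS-11 DMSO replicate 2, was no longer called with any 1 of 6 libraries left out (adjusted p 0.0596 to 0.101, edgeR). ENO1 stood at 1520 and 2154 CPM in the DMSO libraries of KMS-11 against 1046 and 1003 with JQ1, at 697 and 612 against 407 and 400.4 in KMS-12, and at 1938 and 1831 against 1889 and 1979 in RPMI8226. It fell in both KMS lines (-0.84 ± 0.13 and -0.70 ± 0.13) and its libraries interleaved in RPMI8226. ENO2, the neuronal enolase, stood at 46.4 and 93.9 CPM in the DMSO libraries of KMS-11 against 39.6 and 35.6 with JQ1, at 16.0 and 16.7 against 7.32 and 8.37 in KMS-12, and at 63.2 and 68.2 against 47.0 and 56.0 in RPMI8226. Its changes were -0.90 ± 0.27 (KMS-11), -1.06 ± 0.31 (KMS-12) and -0.35 ± 0.27 (RPMI8226), and neither KMS call is firm: the KMS-11 call was lost without DMSO replicate 2 (-0.29) or either JQ1 library, and the KMS-12 call without any of its 4 libraries (adjusted p 0.063 to 0.106, edgeR). Without KMS-11 DMSO replicate 2, the ENO1 change in KMS-11 was -0.55. PKM, pyruvate kinase, fell in KMS-11 (-0.61 ± 0.13, and -0.35 without DMSO replicate 2) and rose (0.43 ± 0.13) in RPMI8226, where leaving out any of the 4 libraries of the line lost the call (adjusted p 0.057 to 0.122, edgeR).

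Lactate dehydrogenase is made of A and B subunits, of which LDHA favours the reduction of pyruvate to lactate. LDHA stood at 1219 and 1924 CPM in the DMSO libraries of KMS-11 against 657 and 672 with JQ1, at 283 and 269.9 against 316 and 338 in KMS-12, and at 892 and 952 against 906 and 986 in RPMI8226. It fell in KMS-11 (-1.24 ± 0.15, edgeR adjusted p = 1.23e-05), with 0.24 ± 0.15 in KMS-12, or -0.53 with library size alone, and 0.036 ± 0.15 in RPMI8226, neither called on the TMM scale. LDHB stood at 51.7 and 56.3 CPM in the DMSO libraries of KMS-11 against 40.5 and 42.7 with JQ1, at 60.0 and 54.4 against 33.9 and 35.9 in KMS-12, and at 21.1 and 21.7 against 24.5 and 28.4 in RPMI8226. It fell in KMS-12 (-0.71 ± 0.11) and in KMS-11 (-0.38 ± 0.11), the latter a call lost without JQ1 replicate 1 (-0.34) or DMSO replicate 2 (-0.30), and its RPMI8226 change of 0.31 ± 0.12 was not called. The average change of LDHA was -0.32 ± 0.088, or -0.20 without KMS-11 DMSO replicate 2. In GENCODE 29, 33.4% of the LDHB exon length and 42.3% of that of ALDOA also belong to another gene on the same strand, and those genes had at most 0.404 and 1.94 CPM.

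**Figure D4:**
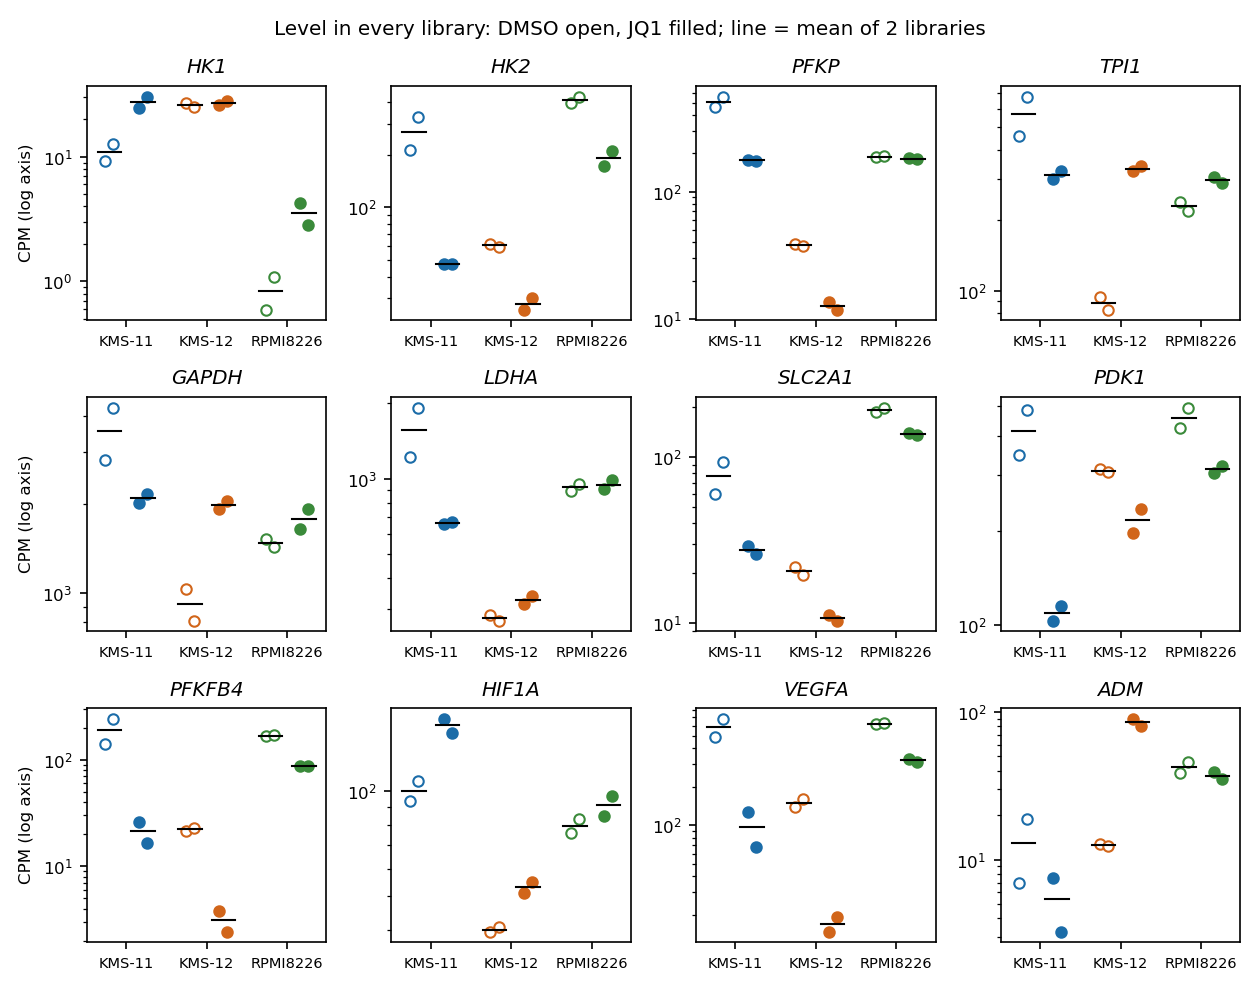
CPM on log axes in each of the 12 libraries for 12 genes (open points DMSO, filled points JQ1, lines the mean of 2 libraries). HK2, SLC2A1, PDK1, PFKFB4 and VEGFA are lower with JQ1 in all lines, TPI1 and GAPDH are lower in KMS-11 and higher in KMS-12, and ADM is higher in KMS-12 with overlapping groups in the other lines.

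The carriers separated by direction. SLC2A1 (GLUT1), the basal glucose carrier, stood at 60.1 and 93.7 CPM in the DMSO libraries of KMS-11 against 29.4 and 26.1 with JQ1, at 21.7 and 19.5 against 11.3 and 10.4 in KMS-12, and at 188 and 198 against 139 and 135 in RPMI8226. JQ1 libraries were below DMSO in each line, with log2 changes of -1.47 ± 0.16 (KMS-11), -0.93 ± 0.17 (KMS-12) and -0.49 ± 0.15 (RPMI8226). The RPMI8226 call was lost without any of its 4 libraries (adjusted p 0.064 to 0.112, edgeR). SLC2A3 stood at 54.2 and 127 CPM in KMS-11 DMSO libraries against 12.8 and 15.1 with JQ1, and at 64.6 and 83.7 against 5.21 and 10.4 in RPMI8226. Both falls passed the test (log2 -2.70 and -3.27), the KMS-11 one not without either JQ1 library (adjusted p 0.0563 to 0.0684, edgeR). No fold is given for KMS-12, which had 1 DMSO read and no JQ1 read.

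SLC16A1, which carries lactate in and out of cells, stood at 52.9 and 47.8 CPM in the DMSO libraries of KMS-11 against 65.2 and 57.6 with JQ1, at 169 and 175 against 267 and 252 in KMS-12, and at 62.3 and 68.1 against 108 and 114 in RPMI8226. It rose in each line, with log2 changes of 0.29 ± 0.10 (KMS-11), 0.59 ± 0.10 (KMS-12) and 0.76 ± 0.10 (RPMI8226), although in KMS-12 the change is -0.18 with library size alone. In KMS-11 the call was lost without JQ1 replicate 1 (0.19) or DMSO replicate 2 (0.23). SLC16A3 (MCT4), known for lactate export from glycolytic cells, stood at 52.4 and 53.5 CPM in the DMSO libraries of KMS-11 against 29.5 and 15.2 with JQ1, at 24.4 and 22.4 against 16.7 and 13.3 in KMS-12, and at 157 and 149.8 against 136 and 114 in RPMI8226. It lay lower with JQ1 in each line and passed the test in KMS-11 (-1.24 ± 0.25) and in the average (-0.72 ± 0.14, edgeR adjusted p = 0.00255).

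All 6 regulators fell in the average of the lines, and none rose in any line; their median change was -0.84 where that over all genes was -0.10, and 26.7% of all genes fell. PFKFB4 (ENSG00000114268, chr3:48517684-48562015, minus strand) had the largest called average fall of the 37 genes, a log2 change of -2.32 ± 0.19 (edgeR adjusted p = 2.25e-05). It stood at 141 and 244 CPM in the DMSO libraries of KMS-11 against 26.2 and 16.4 with JQ1, at 21.7 and 22.9 against 3.79 and 2.42 in KMS-12, and at 167 and 170.3 against 88.2 and 86.9 in RPMI8226. In each line both JQ1 libraries were below both DMSO libraries, with changes of -3.17 ± 0.31 (KMS-11), -2.84 ± 0.38 (KMS-12) and -0.95 ± 0.29 (RPMI8226). The RPMI8226 call was lost without any of its own 4 libraries or either KMS-12 DMSO library, at nearly the same value (-0.96 to -0.93; adjusted p 0.0645 to 0.144, edgeR). PFKFB3, which mainly makes fructose 2,6-bisphosphate, stood at 156 and 207 CPM in the DMSO libraries of KMS-11 against 83.4 and 69.5 with JQ1, at 75.4 and 78.7 against 74.4 and 69.9 in KMS-12, and at 91.2 and 103 against 93.8 and 79.5 in RPMI8226. It fell in KMS-11 (-1.25 ± 0.13), with -0.095 ± 0.13 in KMS-12 and -0.16 ± 0.13 in RPMI8226. PFKFB2, the heart isoform, stood at 31.2 and 34.4 CPM in the DMSO libraries of KMS-11 against 25.4 and 30.7 with JQ1, at 20.6 and 23.8 against 16.96 and 16.1 in KMS-12, and at 7.95 and 7.12 against 2.21 and 3.74 in RPMI8226. It showed the reverse order, with a called fall in RPMI8226 (-1.36 ± 0.21) and changes of -0.23 ± 0.17 and -0.43 ± 0.17 in the KMS lines. The difference of the PFKFB2 responses passed the test (edgeR F test, adjusted p = 0.00985), but not without RPMI8226 JQ1 replicate 1 (adjusted p = 0.1, edgeR).

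PDK1, the pyruvate dehydrogenase kinase that HIF induces, stood at 349 and 482 CPM in the DMSO libraries of KMS-11 against 103 and 115 with JQ1, at 314 and 307 against 197 and 234 in KMS-12, and at 423 and 492 against 304 and 322 in RPMI8226. It fell in each line (-1.93 ± 0.14 (KMS-11), -0.53 ± 0.13 (KMS-12) and -0.55 ± 0.13 (RPMI8226)), and more in KMS-11 than in KMS-12 by 1.40 (SE 0.19; edgeR adjusted p = 6.18e-05). With library size alone the changes were closer, at -2.18 (KMS-11) and -1.30 (KMS-12). Its KMS-12 call was lost without JQ1 replicate 1 (-0.41) and its RPMI8226 call without JQ1 replicate 1 (-0.51) or DMSO replicate 2 (-0.43). PDK2, a widely expressed isoform, stood at 29.6 and 31.4 CPM in the DMSO libraries of KMS-11 against 12.04 and 18.2 with JQ1, at 30.5 and 27.2 against 7.12 and 7.84 in KMS-12, and at 22.9 and 18.2 against 11.4 and 9.98 in RPMI8226. It fell in each line, with changes of -1.01 ± 0.18 (KMS-11), -1.95 ± 0.19 (KMS-12) and -0.93 ± 0.18 (RPMI8226), and here KMS-12 had the largest value. PDK3 stood at 102 and 112 CPM in the DMSO libraries of KMS-11 against 68.1 and 64.0 with JQ1, at 34.7 and 33.9 against 36.6 and 33.6 in KMS-12, and at 153 and 158 against 127 and 146 in RPMI8226. It fell in KMS-11 (-0.69 ± 0.10), with libraries that interleaved in KMS-12 (0.033 ± 0.10, or -0.74 with library size alone). The exons of PDK2 overlap those of SAMD14 on the other strand over 38.6% of their length, and whether counting used the strand is not given in the sources used here.

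The transcript of HIF1A stood at 93.6 and 106 CPM in the DMSO libraries of KMS-11 against 161 and 147 with JQ1, at 39.6 and 40.8 against 51.1 and 55.0 in KMS-12, and at 75.6 and 82.9 against 85.0 and 96.8 in RPMI8226. JQ1 libraries were above DMSO libraries in each line, and the rise passed the test in KMS-11 (0.62 ± 0.10, edgeR adjusted p = 0.000103), KMS-12 (0.40 ± 0.10) and the average (0.41 ± 0.06). In KMS-12 the call was lost without JQ1 replicate 2 (0.35), and with library size alone the KMS-12 change is -0.37 and the average 0.053, which is not called. HIF-1 alpha protein, the level that oxygen controls, was not measured. EGLN1, the main oxygen-sensing hydroxylase, fell in KMS-11 (-0.77 ± 0.16), and its average change (-0.23 ± 0.094, or -0.15 without KMS-12 DMSO replicate 1 and -0.155 without KMS-11 DMSO replicate 2) was lost with any 1 of 9 libraries left out (adjusted p 0.072 to 0.217, edgeR). EGLN3 was low throughout, at 1.04 and 0.732 CPM in KMS-11 DMSO libraries against 5.85 and 3.65 with JQ1, and at 2.27 and 2.36 against 0.704 and 1.31 in RPMI8226. It rose in KMS-11 (log2 2.41) and fell in RPMI8226 (-1.23), the latter not without either DMSO library or JQ1 replicate 1 (adjusted p 0.0946 to 0.271, edgeR), and KMS-12 had 1 read in all.

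Of the 7 HIF-linked genes, 5 fell in KMS-11 and none rose, with a median of -1.30. In KMS-12, 1 fell and 1 rose (median -0.22), and in RPMI8226, 2 fell and none rose (median -0.48). Of all genes tested, 21.2%, 25.7% and 18.6% fell in the respective lines and 17.3%, 20.2% and 13.6% rose, with medians of 0, -0.06 and -0.03, so that both KMS-12 counts are below the shares of all genes. The summed level was 1910 and 2552 CPM in KMS-11 DMSO libraries against 830.3 and 657 CPM with JQ1, 345 and 363 against 286 and 279 CPM in KMS-12, and 3103 and 2945 against 1483 and 1627 CPM in RPMI8226. JQ1 sums were below DMSO sums in all 3 lines, unlike those of the enzymes. In KMS-12 the lower sum rests on VEGFA, with a mean of 149.5 CPM with DMSO and 16.97 CPM with JQ1. There ADM went the other way, from a mean of 12.51 to 85.07 CPM. In RPMI8226 the lower sum rests largely on NDRG1, with a mean of 1200 CPM with DMSO and 300.8 CPM with JQ1. The means of BNIP3 and BNIP3L were slightly higher with JQ1 in that line. In KMS-11 the lower sum rests mostly on VEGFA, NDRG1 and DDIT4. Without KMS-11 DMSO replicate 2 the KMS-11 median was -0.80, with 5 falls. With library size alone, 6 fell and 1 rose in KMS-12.

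VEGFA (ENSG00000112715, chr6:43770184-43786487, plus strand), the angiogenic growth factor, stood at 492 and 682 CPM in the DMSO libraries of KMS-11 against 128 and 67.5 with JQ1, at 139 and 159.6 against 14.7 and 19.3 in KMS-12, and at 615 and 627 against 332 and 314 in RPMI8226. In each line JQ1 libraries lay below DMSO libraries, with changes of -2.59 ± 0.31 (KMS-11), -3.14 ± 0.33 (KMS-12) and -0.94 ± 0.29 (RPMI8226). The average was -2.22 ± 0.18 (edgeR adjusted p = 2.18e-05), and the RPMI8226 call, at an adjusted p of 0.0432 (edgeR), was lost with any 1 of 8 libraries left out at nearly the same value (-0.99 to -0.90). NDRG1 stood at 594 and 742 CPM in the DMSO libraries of KMS-11 against 265 and 253 with JQ1, at 12.2 and 10.3 against 9.79 and 9.58 in KMS-12, and at 1233 and 1168 against 289.6 and 312 in RPMI8226. It fell in RPMI8226 (-2.00 ± 0.11) and in KMS-11 (-1.37 ± 0.11), and its KMS-12 change of -0.22 ± 0.13 from a low level did not pass the test. The response of RPMI8226 minus that of KMS-12 was -1.78 ± 0.18 (edgeR adjusted p = 1.08e-06). With library size alone the changes were closer, at -2.025 (RPMI8226) and -0.99 (KMS-12). DDIT4 stood at 642 and 817 CPM in the DMSO libraries of KMS-11 against 312 and 198 with JQ1, at 70.0 and 66.6 against 46.1 and 51.4 in KMS-12, and at 1011 and 882 against 615 and 725 in RPMI8226. Its JQ1 libraries were below the DMSO libraries in each line, and the fall passed the test in KMS-11 (-1.52 ± 0.19) and in the average (-0.83 ± 0.11). Its exons overlap DDIT4-AS1 on the other strand over 41.2% of their length.

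The mitophagy receptors BNIP3 and BNIP3L fell in KMS-11 and passed the test in no other line. BNIP3 stood at 38.7 and 70.4 CPM in the DMSO libraries of KMS-11 against 18.8 and 25.4 with JQ1, at 22.1 and 25.9 against 22.4 and 20.1 in KMS-12, and at 33.4 and 39.1 against 41.3 and 39.8 in RPMI8226. Its KMS-11 change was -1.30 ± 0.25, or -0.80 without DMSO replicate 2, and the average change (-0.44 ± 0.14, or -0.27 without that library) was no longer called with any 1 of 6 libraries left out (adjusted p 0.0538 to 0.068, edgeR). BNIP3L changed by -0.78 ± 0.18 in KMS-11, or -0.39 without DMSO replicate 2, by 0.20 ± 0.18 in KMS-12, or -0.57 with library size alone, and by 0.15 ± 0.17 in RPMI8226. ANKRD37, a small ankyrin-repeat gene, stood at 8.94 and 17.4 CPM in the DMSO libraries of KMS-11 against 8.23 and 8.64 with JQ1, at 4.17 and 3.06 against 3.53 and 2.26 in KMS-12, and at 30.1 and 35.5 against 21.0 and 26.1 in RPMI8226. Its average change of -0.48 ± 0.17, or -0.29 without KMS-11 DMSO replicate 2, was lost with any 1 of 7 libraries left out (adjusted p 0.0547 to 0.101, edgeR). The exons of ANKRD37 overlap UFSP2 on the other strand over 35.2% of their length. ADM, which encodes the vasodilator peptide adrenomedullin, went the other way in KMS-12. It stood at 6.93 and 18.9 CPM in the DMSO libraries of KMS-11 against 7.56 and 3.25 with JQ1, at 12.7 and 12.3 against 90.1 and 80.1 in KMS-12, and at 38.8 and 46.2 against 39.3 and 34.9 in RPMI8226. Both KMS-12 JQ1 libraries were well above DMSO (2.77 ± 0.48, edgeR adjusted p = 0.00319), and the groups overlapped in the other lines. The KMS-12 response of ADM exceeded that of KMS-11 by 3.99 ± 0.71 (edgeR adjusted p = 0.00866).

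Enzymes and HIF-linked genes were set side by side in each line. In RPMI8226 the enzymes had a median change of 0.04 and the HIF-linked genes of -0.48, with 3 of 17 and 2 of 7 called lower, where 18.6% of all genes were, so the enzyme count is near that share. In KMS-11 both sets were mostly lower, 16 of 17 and 5 of 7, where 21.2% of all genes were. In KMS-12 the called falls were 7 of 17 and 1 of 7, where 25.7% of all genes fell, so the HIF-linked count is below that share. With library size alone, 13 of 17 and 6 of 7 fell there, where 58.8% of all genes were called in either direction. The enzymes HK2 and GPI fell in all 3 lines, as VEGFA did, while the enzymes TPI1, ALDOA and GAPDH rose in KMS-12, as ADM did. No test of one set against the other was made, because members are not replicates of a condition.

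The responses of 32 of the 37 genes differed between lines (edgeR F test, adjusted p under 0.05), where 30.1% of all genes tested did. The exceptions were ENO2, SLC2A3, SLC16A3, HIF1A and ANKRD37, with adjusted p of 0.389, 0.847, 0.153, 0.085 and 0.871. Set against KMS-11, the change was higher in RPMI8226 for 23 genes and lower for 3, where 6.70% and 4.72% of all genes were called. Against KMS-11, KMS-12 was higher for 20 genes and lower for 3 (10.1% and 9.87% of all genes). Between RPMI8226 and KMS-12, 8 genes were higher in RPMI8226 and 6 lower (12.3% and 11.1%). These counts are on the TMM scale. Library size alone would shift the differences by -0.511 (log2) for KMS-12 minus KMS-11, where the median of the 37 genes was 0.72. The shift would be 0.230 for RPMI8226 minus KMS-11 and 0.741 for RPMI8226 minus KMS-12. On that scale the F test called 48% of all genes. Both comparisons with KMS-11 rest on its DMSO libraries. Without KMS-11 DMSO replicate 2, responses differed between lines for 32 genes. The 5 smallest p belonged to TPI1, PFKP, NDRG1 (edgeR F test, adjusted p = 2.85e-06), ALDOA (1.38e-05) and PFKL. Of the 32 calls, 9, those of ADM, BNIP3, BNIP3L, DDIT4, EGLN1, PDK2, PFKFB2, SLC16A1 and VEGFA, were lost with some library left out.

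Ratios between paralogs within a library do not depend on the scaling of library sizes. Per kilobase, the log2 ratio of HK2 to HK1 was 4.67 ± 0.14 in KMS-11 under DMSO and 0.83 ± 0.20 with JQ1 (mean ± SD, n = 2). It went from 1.26 ± 0.035 to 0.10 ± 0.078 in KMS-12 and from 9.06 ± 0.52 to 5.83 ± 0.60 in RPMI8226. HK2 thus remained above HK1 per kilobase in each group, at near-equal levels in KMS-12 with JQ1. The ratio of SLC16A3 to SLC16A1 went from -0.68 ± 0.13 to -2.29 ± 0.55 in KMS-11, from -3.64 ± 0.12 to -4.88 ± 0.17 in KMS-12 and from 0.48 ± 0.14 to -0.59 ± 0.23 in RPMI8226. Both of these ratios were lower with JQ1 in all 6 JQ1 libraries.

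Other pairs differed by line. LDHA to LDHB went from 3.77 ± 0.38 to 2.94 ± 0.033 in KMS-11 but from 1.22 ± 0.051 to 2.17 ± 0.0091 in KMS-12, and from 4.37 ± 0.036 to 4.10 ± 0.064 in RPMI8226. PDK1 to PDK2 likewise went down in KMS-11 (2.31 ± 0.27 to 1.44 ± 0.31) and up in KMS-12 (1.99 ± 0.093 to 3.41 ± 0.078). PFKFB4 to PFKFB3 went down in all lines, in KMS-12 from -1.79 ± 0.014 to -4.57 ± 0.39. PFKP to PFKL also went down in all lines, most in KMS-12, from -0.42 ± 0.0095 to -2.07 ± 0.14. ENO2 to ENO1 hardly moved in KMS-11 (-4.47 ± 0.36 to -4.47 ± 0.067). With coding length in place of exon length the levels of these ratios shift by a constant and their changes do not.

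**Figure D5:**
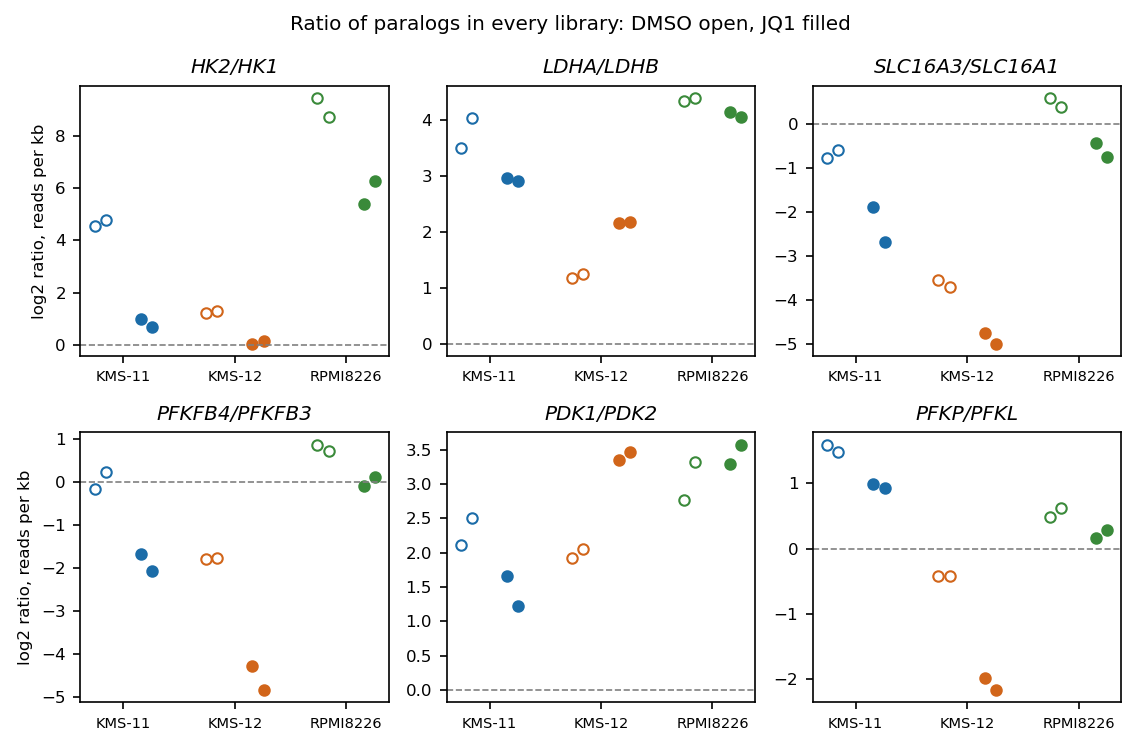
Log2 ratio of reads per kilobase between paralogs in each library (open points DMSO, filled points JQ1; the dashed line marks equal levels). HK2/HK1, SLC16A3/SLC16A1, PFKFB4/PFKFB3 and PFKP/PFKL are lower with JQ1 in each line, while LDHA/LDHB and PDK1/PDK2 go down in KMS-11 and up in KMS-12.

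Other genes of the same pathways, taken from lists that do not overlap with the 37, were counted in the same way. Of 21 other hypoxia-induced genes, 20 were tested. In KMS-11, 17 fell and none rose, in KMS-12, 5 fell and 5 rose, and in RPMI8226, 8 fell and none rose. The KMS-12 counts are near the shares of all genes (25.7% lower and 20.2% higher), against 21.2% and 17.3% in KMS-11 and 18.6% and 13.6% in RPMI8226. PPFIA4, MXI1 and PLOD2 fell in all 3 lines. PPFIA4, a liprin scaffold protein, changed by -2.69 ± 0.16 (KMS-11), -3.74 ± 0.32 (KMS-12) and -0.72 ± 0.15 (RPMI8226). MXI1, a MAX-binding antagonist of MYC, changed by -1.23 ± 0.14 (KMS-11), -1.01 ± 0.15 (KMS-12) and -0.53 ± 0.14 (RPMI8226). PLOD2, a lysyl hydroxylase of collagen, had no read in KMS-12 with JQ1 and 214 reads with DMSO, which makes it at least 49.8-fold lower against a floor of 3 reads over the group.

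The remaining lists held both rises and falls. Of 21 other glycolysis genes, 16 were tested, and in the average of the lines 5 rose and 6 fell, where 22.3% and 26.7% of all genes did. The lactate and pyruvate carrier SLC16A7 (MCT2, -2.12 ± 0.073) and the gluconeogenic enzyme FBP1 (-1.81 ± 0.18) fell, each in all 3 lines, and BSG, a chaperone of the monocarboxylate carriers, rose by 0.53 ± 0.069. Of 11 genes of pyruvate entry into mitochondria, 10 were tested, with 2 rises and 2 falls in the average, near those shares of all genes. PDHB, a subunit of pyruvate dehydrogenase, rose (0.68 ± 0.06), and PDP2, a phosphatase that activates the complex, fell (-0.90 ± 0.064), both in all lines, and PDHX fell in the average (-0.34 ± 0.077).

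Of 11 other HIF pathway genes, 10 were tested, and 4 rose and 1 fell in the average, where 22.3% and 26.7% of all genes did. HIF1AN, the asparaginyl hydroxylase that restrains HIF, rose by 0.63 ± 0.052 and in each line, ELOB, an elongin subunit, by 0.27 ± 0.057, and RBX1, a ubiquitin ligase subunit, by 0.42 ± 0.072. The rises of these lists are on the TMM scale. With library size alone the average values shift by -0.353 and the KMS-12 values by -0.770. The shift of the average is larger than the rise of ELOB and not far from that of RBX1.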

How the data were processed

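Per the labels' protocols, total RNA was made into stranded libraries after removal of ribosomal RNA. The authors deposited raw read counts per Ensembl gene. The submitters' processing notes name hg38 and GRCh38.p13, with DESeq2 and MACS2 in no stated role; the sources used here do not give aligner, counting program or strand setting. In R 4.3.3, edgeR 4.0.16 (TMM, filterByExpr with minimum count 10 and total 15, robust glmQLFit, quasi-likelihood F tests) fitted 1 mean for each of 6 groups over 23493 genes, with Benjamini-Hochberg adjustment over all of them. SE is the log2 fold change over the square root of F. Levels per kilobase used merged GENCODE 29 exons. In simulated counts over 23493 genes, a random set was changed, each gene above a mean of 1 CPM in every line. No other gene responded to JQ1 there. For the average of the lines, 86.6% of 1.5-fold and 100% of 2-fold changes were recovered, and for KMS-11 alone 35.8% and 89.6%. These shares do not cover lower genes or a response as broad as that of the real data. Members and lists were chosen with earlier results of these data known. Named genes were paralog sets with a called member, the 5 largest called rises and falls, those with the 5 smallest p for line-dependent responses, HIF1A, called HIF-linked genes and up to 3 called genes of each other list. One other list is not reported here. Alternatives changed scaling, filter, test, threshold, replicate terms and libraries.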

Additional observations from a re-analysis of the deposited data

Results flagged for a closer look

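The JQ1 responses of 32 of the 37 genes differed between the 3 lines by edgeR's quasi-likelihood F test of the difference itself, with Benjamini-Hochberg adjustment over all genes tested. Among the glycolytic enzymes, the adjusted p was 0.000376 for HK1, 0.00125 for HK2, 0.00149 for GPI, 1.68e-05 for PFKL, 0.00115 for PFKM and 3.74e-07 for PFKP. It was 1.38e-05 for ALDOA, 4.46e-05 for ALDOC, 2e-07 for TPI1, 6.78e-05 for GAPDH, 0.00235 for PGK1 and 0.000192 for PGAM1. It was 0.0029 for ENO1, 0.00137 for PKM, 0.000156 for LDHA and 0.000337 for LDHB. Among the carriers, the adjusted p was 0.0106 for SLC2A1 and 0.0352 for SLC16A1. Among the regulators, the adjusted p was 3.53e-05 for PDK1, 0.0092 for PDK2, 0.00194 for PDK3, 0.00985 for PFKFB2, 0.000176 for PFKFB3 and 0.0109 for PFKFB4. Of the prolyl hydroxylases, the adjusted p was 0.0123 for EGLN1 and 0.000422 for EGLN3. Among the HIF-linked genes, the adjusted p was 0.0201 for BNIP3, 0.0146 for BNIP3L, 0.0138 for VEGFA, 0.0115 for ADM, 2.85e-06 for NDRG1 and 0.0181 for DDIT4. Groups of 2 libraries allow no check for outlying samples, and no other data were left unused.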

How the results depend on the processing

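Scaling to library size alone moved the genes called higher from 5 to 2 in the average of the lines, from 7 to 3 in KMS-12, and those called lower from 12 to 29 in KMS-12 and from 2 to 4 for KMS-11 minus KMS-12 under DMSO. It reversed the average change of ALDOA (-0.11) and, in KMS-12, HK1 (-0.73), PFKL (-0.70), PGAM1 (-0.46), PKM (-0.75), LDHA (-0.53), SLC16A1 (-0.18), PDK3 (-0.74), HIF1A (-0.37), EGLN1 (-0.62) and BNIP3L (-0.57), by its construction, since it shifts the log2 change of all genes alike. A test against a fold of 1.5 left 1 higher and 10 lower in the average, 2 higher in KMS-11, 7 lower in KMS-12, 1 higher and 4 lower in RPMI8226, and 6 lower for KMS-11 minus RPMI8226 under DMSO. With a mean of at least 10 CPM, which removes low genes, 2 rose in KMS-11 and 3 in RPMI8226. With only the groups compared in the fit, 8 rose in RPMI8226; the cause was not tested. Leaving out 1 library at a time, where a lone library is assumed to vary like the other groups, gave 2 to 7 higher and 6 to 14 lower in RPMI8226, and for KMS-11 minus RPMI8226 under DMSO ENO2 ranged from -0.51 (without KMS-11 DMSO replicate 2) to 0.52. Over the 37 genes, the counts of DESeq2 1.42.0 and of RLE scaling stayed within 1.5 times of those reported, while for the 7 HIF-linked genes DESeq2 called 2 lower in KMS-12 where edgeR called 1. For deviations by replicate number, the correlation between DMSO and JQ1 within a line was 0.187 (KMS-11), 0.0833 (KMS-12) and 0.435 (RPMI8226). Between groups of different lines it ran from -0.1 to 0.256, so only the RPMI8226 value lay above all of these. The main fit had no replicate term. A replicate block gave 5 higher and 24 lower in the average, 4 and 30 for KMS-11, 7 and 14 for KMS-12, 5 and 10 for RPMI8226, and 33 genes with a difference between lines. With the block within each line these were 6 and 25, 4 and 30, 7 and 12, 7 and 11, and 29. Depth limits EGLN3 and SLC2A3 in KMS-12, where 0 or 1 read was found.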
